A study of Mus musculus with 13 samples.

Results

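Respiratory complex I (NADH:ubiquinone oxidoreductase) was followed in the pancreas through the transcripts of its subunits. The members were the protein-coding mouse genes named Ndufa, Ndufb, Ndufc, Ndufs, Ndufv or Ndufab and a number, without the Ndufaf assembly factors. The annotation holds 41 such genes, and 38 of them were among the 23366 genes of the expression table. Ndufb1, Ndufb4b and Ndufb4c were not analysed here. The 38 members comprised all 7 nuclear core subunits, 29 supernumerary subunits, and Ndufa4 with its paralog Ndufa4l2, which carry the family name although the Ndufa4 protein is now placed with complex IV.

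Complex I takes electrons from NADH, passes them along a flavin and a chain of iron-sulfur clusters to ubiquinone, and couples this to proton pumping across the inner mitochondrial membrane. Its N module oxidizes NADH, its Q module reduces ubiquinone, and the proximal and distal parts of the membrane arm pump protons. The core subunits carry the chemistry, and the supernumerary subunits surround them and are needed for assembly and stability. The core of the membrane arm is encoded by the mitochondrial genome, and those 7 subunits were not analysed here. The pancreas is mostly acinar tissue, which spends much ATP on making and secreting digestive enzymes.

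RNA was sequenced from the pancreas of 13 female reprogrammable mice, with 1 library per mouse. All 3 groups carried the i4F-B transgene, a doxycycline-inducible cassette for OCT4, SOX2, KLF4 and MYC (OSKM) that lies in the Pparg gene and can be induced throughout the body, although not equally in all pancreatic cell types. The young group (n = 4, 13 weeks old) and the old group (n = 5, 55 weeks) received no doxycycline. The old-OSKM group (n = 4) drank doxycycline for 7 days and recovered for 2 weeks, to 58 weeks of age. The doxycycline water also contained sucrose, which the study does not report for the untreated groups. Doxycycline, sucrose and OSKM induction therefore cannot be told apart. Old-OSKM mice were also older than old mice by the time of treatment and recovery. The values are log2 RPKM, that is, reads per kilobase of transcript scaled to library size, on a log2 scale, so that levels of different genes can be compared per length. The number of reads behind each value is not in the table. In bulk tissue, fewer cells of a type and less RNA per cell cannot be told apart.

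The acinar markers defined the tissue in every library, with a summed level of 14 genes between 14397 and 15166 RPKM. The quantile normalization holds the top ranks at fixed values, so that Ctrb1, Cela2a and Amy2a5 had the same value in all 13 mice, and this sum cannot compare acinar content between mice. Some libraries stood apart in other markers. Young mouse 3 held 65.5 RPKM over 5 hepatocyte markers, against at most 7.32 in the other mice. Old-OSKM mouse 1 had the highest summed markers of B and plasma cells (13.5 RPKM), T cells (5.15 RPKM) and macrophages (27.5 RPKM) and the lowest of islets (80.9 RPKM). Its summed adipocyte markers (11.6 RPKM) were below only those of old-OSKM mouse 4, although Adipoq, Plin1, Lep and Cidec were highest in mouse 1. Muscle markers were low in every mouse, at 0.584 to 0.830 RPKM. Old-OSKM mouse 4 had the lowest value of all 13 mice for 44.7% of all genes, and its complex I values are described separately because they set the values of its group.

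The members were expressed at moderate levels. Their mean log2 RPKM over the 13 mice had a median of 2.48, against -1.02 for all genes. The highest were Ndufb9 (3.83) and Ndufb8 (3.32), both in the distal membrane arm, and Ndufa6 (3.39), an accessory subunit of the LYR family. The lowest were Ndufa4l2 (-0.81), Ndufa11 (0.80) in the proximal arm and Ndufs4 (1.32), an N module subunit whose loss causes Leigh-like disease. Among the core subunits, Ndufs1, which holds iron-sulfur clusters, stood at 2.24 and Ndufs8, an iron-sulfur subunit of the Q module, at 2.55. Ndufs5 (2.48) is uncertain, since the table also lists its pseudogene Ndufs5-ps at 1.67 to 2.32, and reads may have been split between them.

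Promoters were read to see which short motifs the members have in common. RefSeq windows on GRCm38.p6, from 250 bases before to 50 bases after the transcription start, were found for 33 of 38 members (35 windows), with a median GC content of 59%, against 52.7% over 32851 windows of all genes. The letters AAGATGGC, the core of the YY1 motif, occurred on either strand in 7 of the 35 windows (20%), against 2.75% of all windows and 4.91% of windows of genes with a mean log2 RPKM over 0. In all 7 windows they lay on the strand of the gene, with the first base 23 to 39 bases after the start. These 7 stretches are printed because they show that shared position, with the motif in capitals, 12 bases before it and 4 after it.
Ndufa3 (chr7:3617383-3617406, plus strand): gccgccaagaacAAGATGGCcggg
Ndufa9 (chr6:126849104-126849127, minus strand): gcattgtgggagAAGATGGCggcc
Ndufb8 (chr19:44555393-44555416, minus strand): gcggagaaggtgAAGATGGCtgcc
Ndufc1 (chr3:51408922-51408945, minus strand): agcctgcggaacAAGATGGCgccg
Ndufs4 (chr13:114388048-114388071, minus strand): tttgcctacaggAAGATGGCggcg
Ndufs6 (chr13:73328438-73328461, minus strand): agggtcaccggcAAGATGGCggcg
Ndufs7 (chr10:80249461-80249484, plus strand): aaggccgaggccAAGATGGCggcg

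The NRF1 motif GCATGCGC was present in 3 windows (8.57%, against 2.71% of all windows and 5.43% of windows of genes with a mean log2 RPKM over 0), those of Ndufa11, Ndufa6 and Ndufa8. The ETS motif CCGGAAG was in 4 windows (11.4%, against 8.86% of all windows and 19.0% of windows of genes with a mean log2 RPKM over 0), and TATAAA was in 5 (14.3%, against 13.6% of all windows and 7.25% of those of the genes over 0). All motifs were searched on both strands. The 250 bases before the starts of Ndufa6 and Ndufb7 are printed because these members had values in old-OSKM mice that did not overlap with those of old mice (Ndufa6) or of young mice (Ndufb7). With all mice, 1.73% of all genes had no overlap between old-OSKM and old mice, and 1.9% between old-OSKM and young mice. The choice thus rests on the expression values, and a link between the marked motifs and these values was not tested. The capitals mark the NRF1 motif in Ndufa6, whose first base is at -83, and the ETS motif in Ndufb7.
Ndufa6 (chr15:82354292-82354541, minus strand): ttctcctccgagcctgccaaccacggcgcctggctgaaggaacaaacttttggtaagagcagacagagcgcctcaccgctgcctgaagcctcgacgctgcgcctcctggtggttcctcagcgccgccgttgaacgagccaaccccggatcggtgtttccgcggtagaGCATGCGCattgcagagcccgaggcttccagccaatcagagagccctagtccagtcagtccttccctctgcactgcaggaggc
Ndufb7 (chr8:83566508-83566757, plus strand): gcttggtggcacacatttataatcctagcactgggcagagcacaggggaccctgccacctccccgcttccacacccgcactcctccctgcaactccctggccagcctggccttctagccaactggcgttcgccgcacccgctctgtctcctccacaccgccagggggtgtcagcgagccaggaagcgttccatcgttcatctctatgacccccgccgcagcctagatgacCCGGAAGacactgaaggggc

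Age was compared first, since the study asks whether changes between young and old pancreas are moved by OSKM. No complex I transcript passed the test for a difference between old and young mice, and the estimated differences were small. None of the 38 members passed a raw p of 0.05 in limma, where 3% of all genes were higher and 2.52% were lower in old mice. The median log2 difference of the members was -0.01, against 0.00 for all genes, with 15 members higher and 23 lower and a range of -0.15 to 0.16. The smallest adjusted p among them, by Benjamini-Hochberg over all genes, was 1. No member had old values entirely outside the young values, while 2.71% of all genes did. None passed the rule of more than 1.5-fold with a raw p under 0.01 (0.886% of genes) or an adjusted p under 0.05 (0.0813% of genes). Among marker lists, 4 of 7 fibroblast and stellate markers were lower and 2 of 6 B and plasma cell markers higher in old mice at a raw p under 0.05, and their part in the complex I values was not tested.

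The intervals limited how large an age difference could have been. For 36 of 38 members the 95% interval of the difference lay within 1.5-fold in either direction, which held for 67.9% of all genes and 88.8% of genes with a mean log2 RPKM over 0. Ndufa12 and Ndufa4l2 had intervals that reached 1.5-fold. The fit shares its error over the 3 groups, so old-OSKM mouse 4 enters these intervals although it is in neither group. Without it only Ndufa4l2 reached 1.5-fold, and the interval of Ndufa12 was -0.02 to 0.30 instead of -0.31 to 0.59. The median SE of the members was 0.10 with all mice and 0.06 without old-OSKM mouse 4 (0.12 and 0.10 for all genes).

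With all mice in the fit, the member with the smallest p for age was Ndufv3, an accessory subunit of the flavoprotein end of the N module. Its log2 RPKM was 3.44, 3.42, 3.09 and 3.34 in the young mice and 3.29, 3.18, 3.13, 3.15 and 3.20 in the old mice. The groups overlapped through young mouse 3, and the difference was -0.13 (95% interval -0.29 to 0.03).

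Ndufs4 measured 1.37, 1.44, 1.46 and 1.45 in young mice and 1.36, 1.39, 1.34, 1.29 and 1.02 in old mice. Its difference was -0.15 (SE 0.10), and old mouse 5 lay well below the other old mice. Ndufab1, the mitochondrial acyl carrier protein that also serves fatty acid and lipoic acid synthesis, averaged 1.73 ± 0.15 (SD) in the 4 young mice and 1.89 ± 0.02 in the 5 old mice, which differed by 0.16 (SE 0.17). Without old-OSKM mouse 4 in the fit, that SE was 0.09. The next smallest p-values with all mice were those of Ndufb2 (0.10, SE 0.11), Ndufs5 (-0.10, SE 0.12) and Ndufb7 (-0.04, SE 0.06). Among the core subunits, the age differences ran from -0.04 for Ndufv1, which binds NADH and flavin, to 0.06 for Ndufv2, its iron-sulfur partner.

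**Figure D1:**
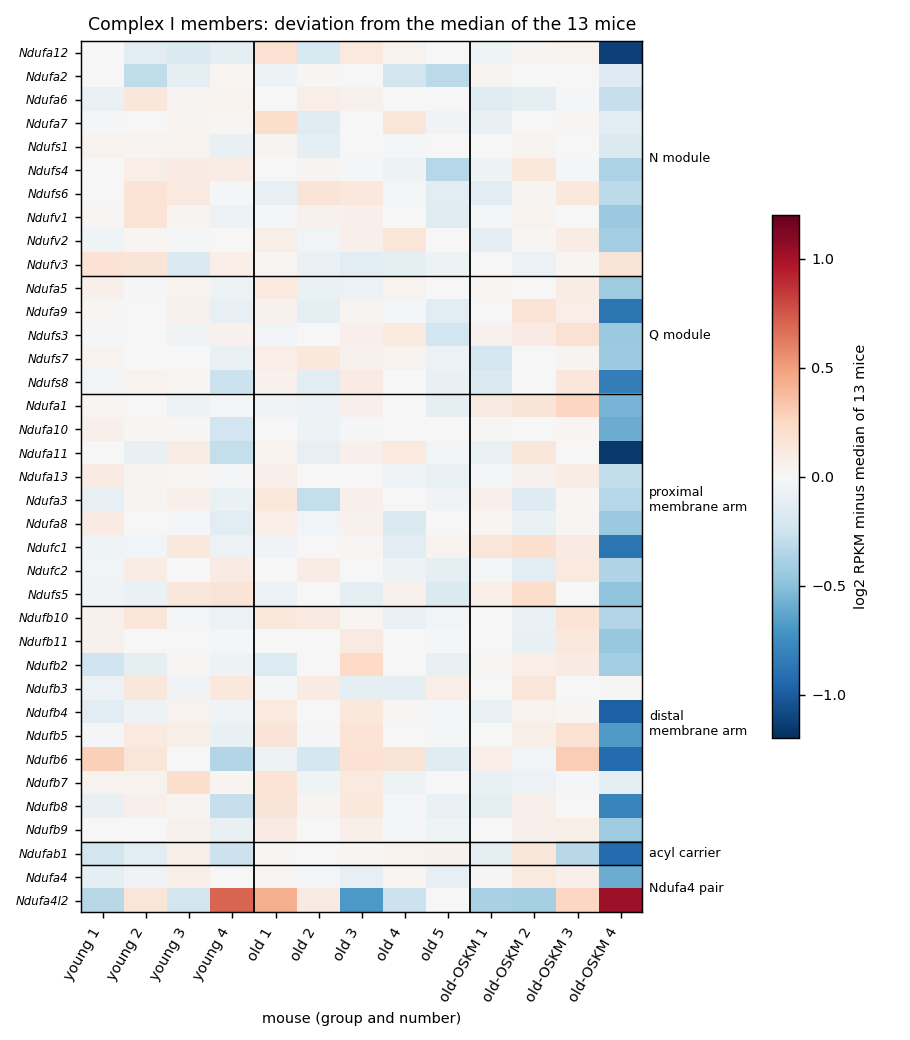
Each row is a member (37 of the 38 are drawn), ordered by its place in the complex, and each column is 1 mouse; colour gives the log2 RPKM minus the member's median over the 13 mice. The column of old-OSKM mouse 4 is blue for nearly all members, with a median deviation of -0.43, while the medians of the other 12 mice lie between -0.05 and 0.05.

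The summed level of the members was close in young and old mice and lower in 1 old-OSKM mouse. It was 235 ± 5.70 RPKM (SD, n = 4) in young mice, 235 ± 7.27 (n = 5) in old mice and 222 ± 33.1 (n = 4) in old-OSKM mice. The single values of the old-OSKM mice were 231, 239, 246 and 174 RPKM, in the order of mice 1 to 4. Old-OSKM mouse 4 thus lay below every other mouse, and without it the group stood at 238 ± 7.56 RPKM (n = 3). The plot of members by mouse shows the same library as a single column.

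In old-OSKM mouse 4, complex I transcripts were lower across the modules. This mouse had the lowest value of all 13 for 33 of the 38 members, where it was lowest for 36.2% of all genes with a mean log2 RPKM over 0. It had the highest value for 1 member and for 24.0% of those genes. Against the mean of the other 3 old-OSKM mice, the median difference of the members was -0.46, which is 0.728-fold, beside -0.10 for all genes and -0.08 for those over 0. The difference was below 0 for 36 of 38 members. More than 1.5-fold lower were 13 members (34.2%), 7.91% of all genes and 10.6% of genes with a mean log2 RPKM over 0. These values describe 1 mouse and carry no test.

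The median of this difference was -0.25 over the 10 N module members (-1.13 to 0.18), -0.51 over the 6 Q module members (-0.96 to -0.25), -0.58 over the 9 proximal arm members (-1.18 to -0.32) and -0.47 over the 10 distal arm members (-1.04 to -0.03). The ranges of the 4 places overlapped. The lowest were Ndufa11 (-1.18), Ndufa12 (-1.13), an N module subunit, Ndufb6 (-1.04) of the distal arm and Ndufc1 (-1.02) of the proximal arm. Ndufa12 and the last 2 were named after their values were seen.

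Ndufa12 showed the pattern plainly. Its log2 RPKM was 2.74, 2.60, 2.56 and 2.61 in young mice, 2.92, 2.55, 2.85, 2.78 and 2.73 in old mice, and 2.68, 2.77, 2.78 and 1.61 in old-OSKM mice. Old-OSKM mice 1 to 3 lay inside the range of the old mice, and mouse 4 was 0.456-fold of their mean. Ndufab1 was 1.75, 2.00 and 1.53 in the first 3 old-OSKM mice, all outside the narrow range of 1.86 to 1.91 in old mice, and 0.94 in mouse 4.

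The core subunits were all lowest in this mouse, with a median difference of -0.42. The difference was -0.82 for Ndufs8 and -0.56 for Ndufs3 in the Q module, but only -0.18 for Ndufs1 of the N module. A few members showed little of it. Ndufb3 (-0.03) and Ndufb7 (-0.05) of the distal arm and Ndufa7 (-0.10) of the N module were close to the other old-OSKM mice, and Ndufv3 was higher (0.18). Ndufa4l2, a gene known to be induced by hypoxia, went the other way, at -1.23, -1.23 and -0.59 in old-OSKM mice 1 to 3 and 0.19 in mouse 4, the highest value of all 13 mice.

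Other nuclear genes of mitochondria were described in the same way, as the difference between old-OSKM mouse 4 and the mean of the other old-OSKM mice. It was below 0 for 61.7% of all genes and 57.3% of those with a mean log2 RPKM over 0. Of the complex I assembly factors 13 of 18 were below 0 (median -0.38), of the complex II subunits 4 of 4 (median -0.24), and of the genes of mitochondrial import, transport and chaperones 15 of 17 (median -0.33). Regulators of mitochondrial transcription lay close to all genes, with 8 of 14 below 0 and a median of -0.12.

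Cell type markers and RNA features moved in the same library. Its summed fibroblast and stellate markers were 72.8 RPKM, against 20.1 to 53.8 in the other mice, and 7 of 7 markers were above the mean of the other old-OSKM mice. Endothelial markers summed to 18.2 RPKM (8.33 to 14.6 in the others) and islet markers to 509 RPKM (80.9 to 395). Erythroid markers reached 104 RPKM (34.7 to 68.2), adipocyte markers 15.3 RPKM (3.45 to 11.6) and duct markers 49.5 RPKM (34.3 to 47.3), each sum the highest of the 13 mice, and macrophage markers 26.1 RPKM, below only old-OSKM mouse 1. The sums did not hold for every marker in a list. Of the 7 adipocyte markers, only 2, Fabp4 and Plin4, were highest in mouse 4, and 1, Ucp1, was lowest there. Of the 7 duct markers, 4 were highest in mouse 4 and 1 was lowest. Of the 10 islet markers, 6 were highest there, while Ppy, Pdx1, Mafa and Slc2a2 lay within the range of the other mice. All 10 were above the mean of the other old-OSKM mice. Highest in mouse 4 were also 5 of 7 fibroblast and stellate, 4 of 5 endothelial and 3 of 5 erythroid markers. Among genes looked up after the values were seen, the nuclear RNA Malat1 stood at 7.57 log2 RPKM (5.27 to 6.11 in the others). Of the acinar transcription factors, Ptf1a was the lowest of all mice at 1.74 (2.47 to 3.14), Rbpjl the highest at 4.20 (2.73 to 3.52), and Bhlha15 within the range at 3.79 (3.39 to 3.81). The clock genes Arntl (-2.72, against -1.99 to 1.74 in the others) and Dbp (3.83, against -0.72 to 2.91) were at the ends of their ranges as well. Young mice 2 and 4 lay nearest, at -0.84 and -1.99 for Arntl and 2.47 and 2.91 for Dbp. Untreated young mouse 4 was also next highest in the fibroblast and stellate, endothelial, erythroid and duct sums and in Malat1. For islet markers old mouse 3 was next, and for adipocyte markers old-OSKM mouse 1. The median deviation of the complex I members in young mouse 4 was -0.05, the lowest of the other 12 mice, against -0.43 in old-OSKM mouse 4. The part of each of these in the complex I values was not tested.

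**Figure D2:**
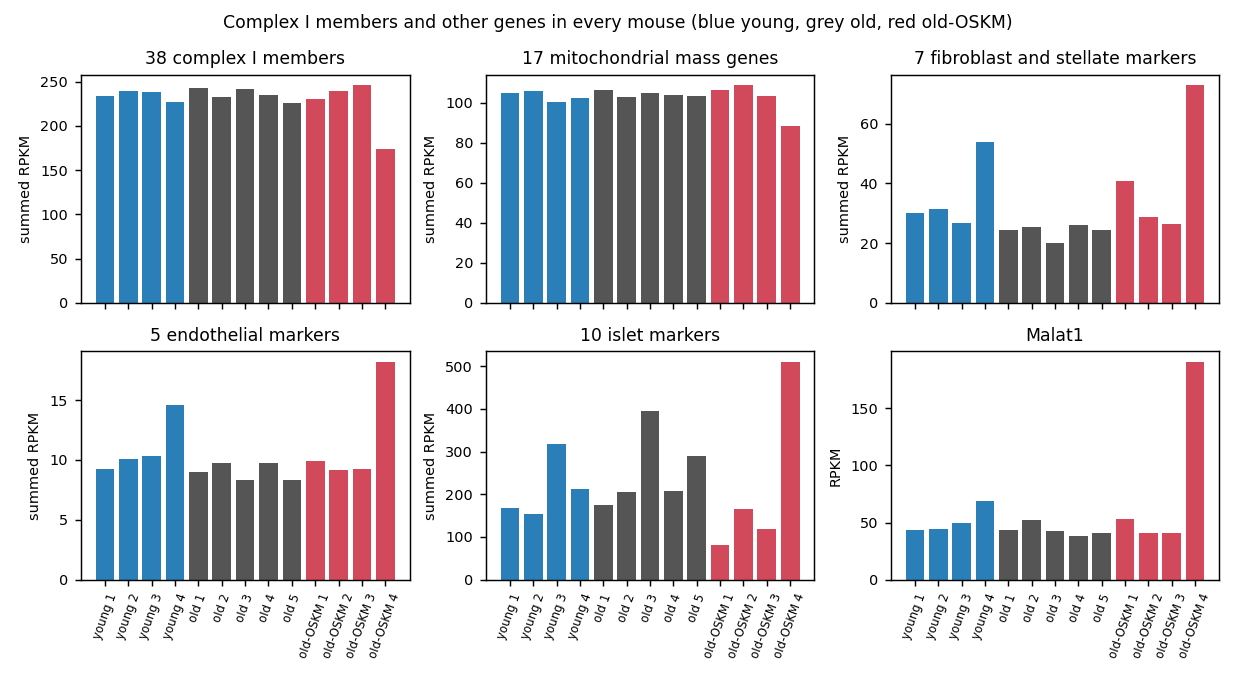
Bars give the summed RPKM of the complex I members, of mitochondrial mass genes and of 3 marker lists, and the RPKM of Malat1, for each mouse on axes from 0. Old-OSKM mouse 4 has the lowest bar for the complex I members (174) and the highest for the fibroblast and stellate (72.8), endothelial (18.2) and islet (509) markers.

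Members also varied together across mice mainly through this library. Over the 703 pairs of members, the median correlation of deviations from the group means was 0.690 with all 13 mice and 0.211 without old-OSKM mouse 4, beside 0.020 and 0.016 for genes with a mean log2 RPKM over 0. The pairs share libraries and their normalization. The median within-group SD of the members was 0.147 with all mice, close to 0.154 for those genes, and 0.092 without old-OSKM mouse 4, where it was 0.121 for those genes.

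Old-OSKM mice were then compared with old mice, which asks what a cycle of OSKM left behind. With all mice, 32 of 38 members had a lower mean in old-OSKM mice, as had 14741 of all 23366 genes. The median difference was -0.09 (-0.04 for all genes). Without old-OSKM mouse 4 the median was 0.01 (-0.02 for all genes), with 25 members higher and 13 lower, so that the direction of the list rested on that library. Of all genes, 8697 were higher and 14669 lower in that fit. Of the members, 2 were lower at a raw p under 0.05 with all mice, Ndufa6 and Ndufs7, and none was higher. That share is near the background, since 4.08% of all genes were lower and 3.98% higher. No member passed the 1.5-fold rule (0.753% of genes) or an adjusted p of 0.05 (0.00428% of genes).

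Ndufa6 (Entrez 67130, GRCm38 chr15:82350139-82354291) was lower in old-OSKM mice with and without mouse 4. Its log2 RPKM was 3.34, 3.55, 3.45 and 3.46 in young mice, 3.41, 3.50, 3.46, 3.42 and 3.42 in old mice, and 3.27, 3.31, 3.40 and 3.14 in old-OSKM mice. All 4 old-OSKM values lay below all 5 old values, the only such member, where 1.73% of all genes had groups that did not overlap in either direction. The gap was narrow, from 3.40 in old-OSKM mouse 3 to 3.41 in old mouse 1, and young mouse 1 lay within the old-OSKM range. The difference from old mice was -0.16 (0.895-fold, SE 0.06, adjusted p = 0.547 in limma), and -0.11 without mouse 4 (SE 0.05, adjusted p = 0.795). The raw call held in all 13 fits that left out 1 mouse. It was lost without old-OSKM mice 1 and 4 and young mouse 3 together (-0.08) and with the global signature (the mean z-score over all genes in each mouse) as covariate (-0.11).

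Some markers of other cells were higher in the same comparison. At a raw p under 0.05, where 3.98% of all genes were higher, 4 of 7 fibroblast and stellate, 4 of 6 macrophage and 3 of 7 adipocyte markers were higher in old-OSKM than in old mice, among them Col1a1 (0.88, SE 0.26) and Csf1r (0.67, SE 0.22), and 1 of 10 islet markers was lower. Of the 7 adipocyte markers, 5 had a mean log2 RPKM below -2. Without mouse 4, 3 fibroblast and stellate, 2 macrophage and 1 adipocyte marker were higher, and 6 islet markers were lower. Their part in the differences of Ndufa6 and of the other members was not tested.

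Ndufs7 (Entrez 75406, GRCm38 chr10:80249105-80256794), the Q module core subunit with the terminal iron-sulfur cluster, was 2.59, 2.63, 2.56, 2.55 and 2.44 in old mice and 2.30, 2.51, 2.55 and 2.07 in old-OSKM mice. Old-OSKM mice 2 and 3 lay within the old range, and mice 1 and 4 below it. The difference was -0.20 (SE 0.09, adjusted p = 0.547), and -0.10 without mouse 4 (SE 0.06). Its raw call was lost in 10 of the 13 fits that left out 1 mouse, those without any 1 of young mice 1 to 4, old mice 1 to 4, or old-OSKM mice 1 and 4.

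The members next in order of p did not pass the raw threshold. Ndufab1 differed by -0.33 (SE 0.17), Ndufv2 by -0.15 (SE 0.09), Ndufb7 by -0.11 (SE 0.06) and Ndufb4 of the distal arm by -0.30 (SE 0.17). Without mouse 4, Ndufb4 stood at 3.02 ± 0.07 (SD, n = 3) beside 3.07 ± 0.07 (n = 5) in old mice, less than the spread between mice. The differences of the other core subunits ran from -0.20 for Ndufs8 (SE 0.16) to -0.01 for Ndufs3 (SE 0.12).

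**Figure D3:**
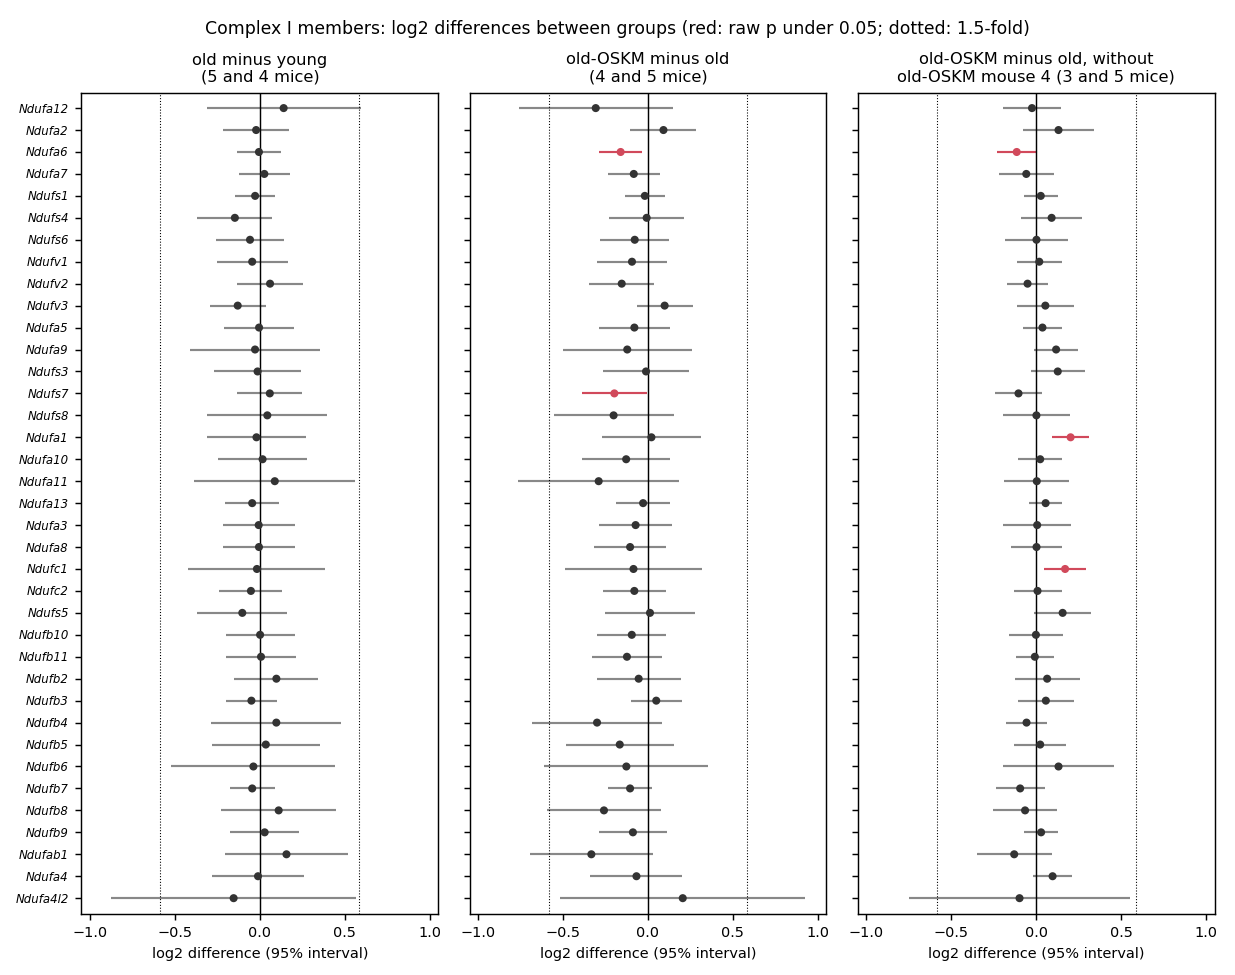
Points are log2 differences of 37 of the 38 members and lines their 95% intervals in limma, with old minus young on the left, old-OSKM minus old in the middle and the latter without old-OSKM mouse 4 on the right; red marks a raw p under 0.05 and dotted lines mark 1.5-fold. No member is red for age, Ndufa6 and Ndufs7 are red below 0 with all mice, and Ndufa1 and Ndufc1 are red above 0 only in the fit without mouse 4.

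Without old-OSKM mouse 4, 2 members were higher than in old mice at a raw p under 0.05 (2.88% of all genes were higher) and 1 was lower (3.35% of all genes). The higher ones were Ndufa1 and Ndufc1, small subunits of the proximal arm, named after their values were seen. Ndufa1 (Entrez 54405, GRCm38 chrX:37187588-37191238) was 2.94, 2.91, 3.04, 2.98 and 2.87 in old mice, and 3.09, 3.13, 3.23 and 2.42 in old-OSKM mice. Mice 1 to 3 of the old-OSKM group were above all 9 untreated mice, and mouse 4 was below all of them.

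The difference of Ndufa1 from old mice was 0.20 without mouse 4 (95% interval 0.10 to 0.31, adjusted p = 0.601), and 0.02 with all mice (SE 0.13). Ndufc1 (Entrez 66377, GRCm38 chr3:51405479-51408955) was 2.62, 2.67 and 2.58 in old-OSKM mice 1 to 3, 1.60 in mouse 4, and 2.34 to 2.52 in old mice. Its difference was 0.17 without mouse 4 (SE 0.06, adjusted p = 0.637) and -0.09 with it (SE 0.18). In the same fit Ins1 (-1.09, SE 0.34) and Ins2 (-1.11, SE 0.35) were among the 6 of 10 islet markers that were lower, and 2 of 5 erythroid markers were lower. Their part in the differences of Ndufa1 and Ndufc1 was not tested. In this fit 3 members, Ndufa1, Ndufc1 and Ndufa6, had groups that did not overlap (3.88% of all genes), and the intervals of 37 of 38 members lay within 1.5-fold.

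**Figure D4:**
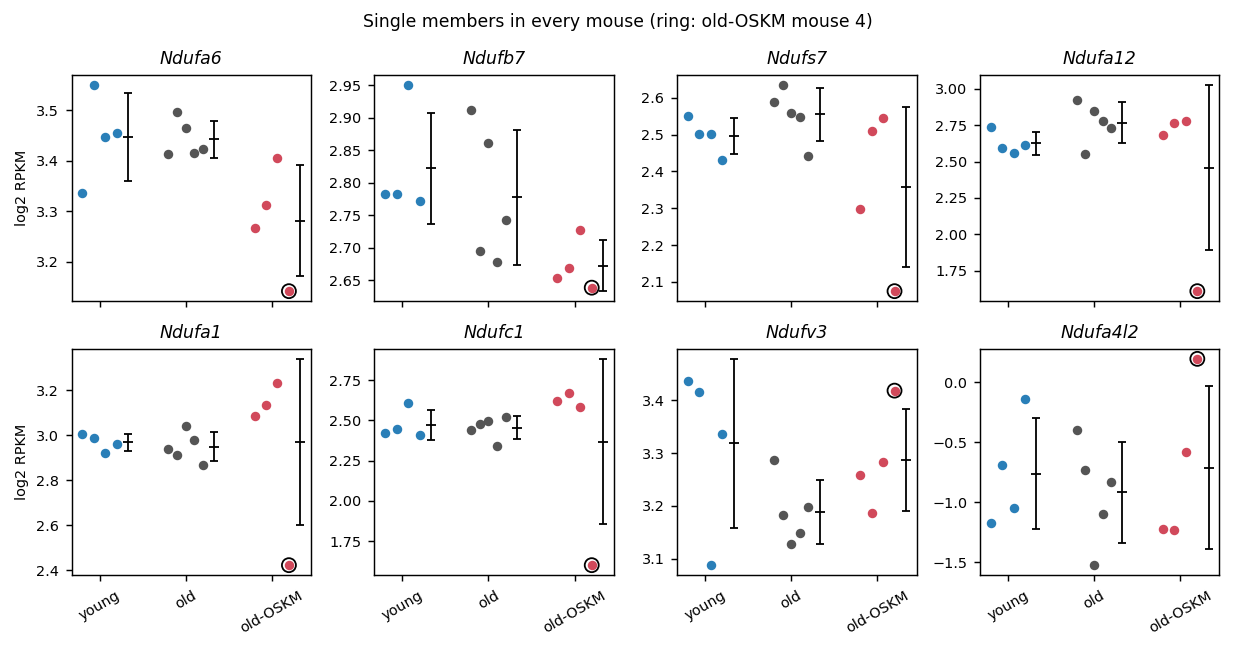
Points are the log2 RPKM of 8 members in each mouse, with the group mean and SD to the right of each group and a ring around old-OSKM mouse 4; each panel has its own axis, which does not start at 0. All old-OSKM points of Ndufa6 lie below the old points, those of Ndufb7 below the young points, and for Ndufa1 and Ndufc1 3 old-OSKM points lie above the old points with the ringed point below.

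Old-OSKM mice were last compared with young mice. This comparison and the preceding ones share groups, so that they are not independent. The median difference of the members was -0.11 with all mice (-0.04 for all genes) and 0.02 without old-OSKM mouse 4 (-0.02 for all genes). With all mice, 2 members were lower at a raw p under 0.05 (2.16% of all genes) and none was higher (2.91%). They were Ndufa6 (-0.17, SE 0.06, adjusted p = 0.706) and Ndufb7 (-0.15, SE 0.06, adjusted p = 0.706). Markers of B and plasma cells (4 of 6) and T cells (3 of 5) were higher in the same comparison, and their part in these values was not tested. Many of these markers were low, with a mean log2 RPKM below -2 for 2 of the 6 B and plasma cell and 4 of the 5 T cell markers. Without young mouse 2, Ndufa6 lost its raw call against young mice. No member passed the 1.5-fold rule (0.625% of genes) or an adjusted p of 0.05 (0.0428%).

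Ndufb7 (Entrez 66916, GRCm38 chr8:83566758-83571623), a distal arm subunit on the side of the intermembrane space, was the only member whose old-OSKM values did not overlap with the young ones (1.9% of all genes). It was 2.78, 2.78, 2.95 and 2.77 in young mice, 2.91, 2.70, 2.86, 2.68 and 2.74 in old mice, and 2.65, 2.67, 2.73 and 2.64 in old-OSKM mice. Here mouse 4 lay with its group, and the old values overlapped with those of both other groups. Without mouse 4 the difference was -0.14 (SE 0.07) and did not pass the raw threshold, nor did it without young mouse 3 or without old-OSKM mouse 1 or 2.

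Among the members next in order of p were Ndufs7 (-0.14, SE 0.09), Ndufc2 of the proximal arm (-0.13, SE 0.09) and Ndufs4 (-0.15, SE 0.11). Without old-OSKM mouse 4, Ndufa1 (0.18, SE 0.05) and Ndufc1 (0.15, SE 0.06) were higher than in young mice at a raw p under 0.05, where 3% of all genes were. Ndufa6 (-0.12, SE 0.05) was lower, where 2.82% of all genes were. In that fit Ndufa1 and Ndufb7 had groups that did not overlap (4.6% of all genes). No adjusted p of a member in it was below 0.563.

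The genes that build or regulate complex I gave few calls as well. For age, none of the 18 assembly factors, the 4 complex II subunits, the 14 regulators of mitochondrial transcription and the 17 mitochondrial mass genes passed a raw p of 0.05. In the fit without old-OSKM mouse 4, which has a smaller error, 1 assembly factor, Ndufaf7, was lower in old mice (-0.30, SE 0.11), as was the carrier Slc25a4 of the mass genes (-0.44, SE 0.17), where 3.46% of all genes were lower. The mass genes Timm50 (0.19, SE 0.07) and Vdac3 (0.13, SE 0.05) were higher, as were 4.25% of all genes. With all mice the smallest p in each list was that of Tmem126b (0.20, SE 0.12), Sdhc (0.10, SE 0.07), Ppargc1b (0.35, SE 0.18) and Hspa9 (0.13, SE 0.06). In old-OSKM against old mice, 2 of the 14 regulators were lower, where 4.08% of all genes were, Tfb2m, a mitochondrial transcription factor (-0.24, SE 0.10), and Ppargc1a, a coactivator of mitochondrial biogenesis (-0.34, SE 0.15), both with an adjusted p = 0.547. Without old-OSKM mouse 4 the difference of Ppargc1a was -0.42 (SE 0.16) and passed the raw threshold, and that of Tfb2m was -0.15 (SE 0.08) and did not. No gene of the other 3 lists passed in that comparison with all mice, where Ndufaf2 (-0.34, SE 0.19), Sdhc (-0.11, SE 0.07) and Slc25a4 (0.47, SE 0.22) had the smallest p of their lists.

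Against young mice, 3 of the 18 assembly factors were lower in old-OSKM mice, where 2.16% of all genes were, Ndufaf2 (-0.57, SE 0.21), Ndufaf7 (-0.55, SE 0.22) and Ndufaf4 (-0.17, SE 0.08), each with an adjusted p = 0.706. Ndufaf7 is a methyltransferase that acts during assembly, and Ndufaf2 acts late, when the N module is added. Their differences without old-OSKM mouse 4 were -0.33 (SE 0.12), -0.29 (SE 0.13) and -0.17 (SE 0.08), and only that of Ndufaf2 passed the raw threshold. Among the other lists, Sdhb (-0.09, SE 0.18), Esrra (-0.24, SE 0.11) and Vdac2 (-0.15, SE 0.09) had the smallest p. Without old-OSKM mouse 4, 2 assembly factors and 2 regulators were lower in either old-OSKM comparison (3.35% of all genes were lower against old and 2.82% against young mice), while 1 mitochondrial mass gene was higher against old (2.88% of all genes) and 3 against young mice (3%). No gene of these 4 lists had an adjusted p under 0.05, with or without that library.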

How the data were processed

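Pancreatic RNA of 13 female mice (4 young, 5 old, 4 old-OSKM; 1 library each) was depleted of ribosomal RNA and sequenced in pairs. The authors aligned reads with STAR 2.3.0e to mm10, estimated RPKM per isoform with Casper, summed it per Entrez gene, and deposited log2 RPKM after quantile normalization. Quantile normalization sets equal distributions in all mice, so a shift of all genes cannot be seen. Reads that map to many places were left out, which can lower genes with near copies. The study's methods give a read number for the samples in general, but the table holds no counts and no total of any library, so the depth of each library and its counting error are unknown. Values were used as deposited, without pseudocount or filter. Of 23366 genes, 23273 had a symbol in the RefSeq GRCm38.p6 annotation (the assembly of mm10).

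Differences were fitted to all genes by limma (3.58.1, R 4.3.3; lmFit, then eBayes), 3 groups in 1 fit, with Benjamini-Hochberg adjustment over all genes. The fit was tested on simulated data. Each library is 1 mouse, so p-values measure the spread between mice. Calls were a raw p under 0.05, over 1.5-fold with a raw p under 0.01, and an adjusted p under 0.05; raw p-values serve as thresholds and are not printed. The alternatives were other normalizations, pseudocounts of 1 and 0.1, a filter, other covariates, only the 2 groups compared, and leaving out each mouse. Leaving out 3 libraries together was chosen after seeing the data. Members, gene lists and tests were chosen with earlier results of these data known. An item that enters the counts is not reported by name here. Named with values were core subunits, the 6 members of smallest raw p per contrast, the 3 of highest and 3 of lowest level, and, of each other list, at most 3 genes with a raw p under 0.05 per contrast or its gene of smallest p. Marker lists of 12 cell types were summed per mouse and counted at a raw p under 0.05. Tables were made with pandas 2.3.3 and plots with matplotlib 3.10.9.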

Additional observations from a re-analysis of the deposited data

Results flagged for a closer look

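In 8 of 60 groups of the 20 named members, 1 mouse lay farther from the others of its group than Dixon's 95% critical value allows. The nominal rate is about 1 in 20 groups. Over all genes, however, 9.71% were flagged in the young, 15.9% in the old and 8.31% in the old-OSKM group. The 60 groups share the same mice and are not independent. Old-OSKM mouse 4 was the one in 5 of them: Ndufa11 at -0.25 log2 RPKM (nearest other old-OSKM mouse 0.82), Ndufb2 at 1.83 (2.25), Ndufb4 at 2.04 (2.94), Ndufb9 at 3.43 (3.86) and Ndufv1 at 1.93 (2.36). Over all 38 members, 12 were flagged in the old-OSKM group, 3 in the young group and 2 in the old group. Of genes with a mean log2 RPKM over 0, 11.4%, 5.89% and 5.76% were flagged in these groups, in the same order.

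The other 3 were single values of untreated mice. Ndufb7 was 2.95 in young mouse 3, with the nearest young mouse at 2.78. Ndufs1 was 2.16 in young mouse 4 (nearest 2.29). Ndufs4 was 1.02 in old mouse 5 (nearest 1.29).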

How the results depend on the processing

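No named member changed direction where it had a raw p under 0.05 in either fit, and the count over 1.5-fold with a raw p under 0.01 was 0 in every setting tried. In the main fit, 0 members had a raw p under 0.05 for age and 2 in each old-OSKM comparison, so this shows little about direction. Directions without a raw call did change. Against old mice, 32 of 38 members were lower with all mice, and 25 were higher without old-OSKM mouse 4. Of 479 comparisons of named members with their main value per contrast, 474 for age (old minus young), 456 for old-OSKM against old and 460 for old-OSKM against young mice stayed on the same side of a raw p of 0.05. The number of members with a raw p under 0.05 moved more. With only the 2 groups compared in the fit it was 1 in each of the 3 contrasts. With the global signature as covariate it was 0 against old mice and 1 against young mice for the old-OSKM group, and it was also 1 for the latter with the filter on a mean log2 RPKM over 0 and with the run of sample identifiers as covariate. With the first component of the residuals as covariate it was 11 against old and 8 against young mice, all lower in old-OSKM mice. That component is orthogonal to the groups and led by old-OSKM mouse 4 (-0.73), so by construction it leaves the differences as they are and lowers their error. Without old-OSKM mice 1 and 4 and young mouse 3 the counts were 3 (old minus young), 4 and 4, and the medians of the old-OSKM group were 0.040 against old and 0.054 against young mice.

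When each mouse was left out in turn, the counts ran from 0 to 1 (old minus young), 1 to 4 and 1 to 4, and the medians from -0.02 to 0.00, from -0.14 to 0.01 and from -0.17 to 0.02. The count was 4 in both old-OSKM comparisons without old-OSKM mouse 3, and the medians were above 0 there only without old-OSKM mouse 4 (0.013 and 0.019). The age count of 1 came without young mouse 3, when Ndufv3 passed the raw threshold. Within runs of sample identifiers, whose meaning the labels do not give, the age median was 0.00 (2 young and 4 old mice) and -0.02 (2 young and 1 old mouse), and all old-OSKM mice were in the first run, with a median of -0.10 against its old mice. No paired analysis was possible because the labels give the mice no replicate numbers shared between groups. Depth limits cannot be given, since the table holds no counts.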
